A study of Mus musculus with 134 samples.

Results

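The Dista cells are 121 single mouse embryonic stem cells that the study placed in its expression Cluster 2 and named Dista because most of them had been picked from the side away from a Wnt3a bead. They were taken by that published label from the 752 cells of the 2 single-cell expression tables. Of these cells, 545 passed the filter of 1000 to 5000 detected genes that the study had set, and were clustered into Dista, 133 Proxi cells and 291 Mix cells. All cells were ES-E14TG2a (E14), a feeder-independent embryonic stem cell line, grown in serum with leukemia inhibitory factor on gelatin. They were seeded at low density with Wnt3a-coated beads and collected after about 12 h. Both daughters of a dividing cell that touched a bead were picked by hand, with a note of which one lay beside the bead (proximal) and which one away from it (distal). scSET-seq (same cell epigenome and transcriptome sequencing) then split each cell. The nucleus was used to map H3K27me3 or H3K4me3, and the cytoplasmic RNA was reverse transcribed from oligo-dT and cut by an indexed Tn5 transposase. There were 10 H3K27me3 and 6 H3K4me3 experiments, with no cells grown without a bead in these tables. Only the expression counts of the cytoplasm are described here.

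Wnt proteins bind Frizzled and LRP receptors, which stabilises beta-catenin and switches on target genes, and in embryonic stem cells this signal helps to keep the self-renewing state. A bead presents the ligand from one side, so that the daughter cell beside it is exposed and the daughter cell away from it is less so. The marker genes followed here were Ndufb10, Rpl37 and Rps4x, which the study listed for Dista, with Ezh2 and Suz12, which it examined as PRC2 genes. NDUFB10 is a subunit of respiratory complex I, RPL37 and RPS4X are proteins of the large and small ribosomal subunit, and EZH2 and SUZ12 are core subunits of Polycomb repressive complex 2 (PRC2), which methylates histone H3 on lysine 27. The clusters had been formed from the expression of these same cells. Differences in gene expression between Dista and another cluster are therefore given as descriptions without a test. The tests were kept for the recorded position and the assay. Position was not an input to the clustering by the study's methods. The study merged the 2 assays and corrected batch effects before clustering, so the clusters may not be independent of the assay.

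Dista cells were mostly distal cells, which is how the cluster got its name. In the H3K27me3 experiments there were 69 Dista cells, 48 distal and 21 proximal, and in the H3K4me3 experiments 52, 42 distal and 10 proximal. Together 90 of the 121 were distal (74.4%), against 14.3% of Proxi cells and 54.3% of Mix cells. Read the other way, Dista took 33.7% of the 267 distal cells that passed the filter and 11.2% of the 278 proximal ones. The proximal share was 12.3% in H3K27me3 and 9.35% in H3K4me3 experiments. Each of the 96 index pairs that barcoded the cells was used at one position throughout, so position and barcode cannot be told apart in these tables.

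The experiments contributed very unevenly to the cluster. Dista made up 60.0%, 52.4% and 52.2% of the passing cells in H3K27me3 experiments 4 and 5 and H3K4me3 experiment 5, and 15.6%, 12.3% and 10.6% in H3K27me3 experiment 6 and H3K4me3 experiments 3 and 4. H3K27me3 experiments 8 to 10 together held 4 Dista cells among 165 passing cells, and H3K4me3 experiment 1 held none. Comparisons of levels between clusters were made inside each experiment. They rest on the 9 experiments with at least 3 cells of each cluster, H3K27me3 experiments 3 to 7 and H3K4me3 experiments 2 to 5. Shares of cells with a count, unless given at 1 common depth, pool all cells of a cluster over all experiments. Such shares also carry differences in experiment and depth between the clusters. The Mix sums rest on 3 cells in H3K27me3 experiments 3 and 4 and in H3K4me3 experiment 2.

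**Figure D1:**
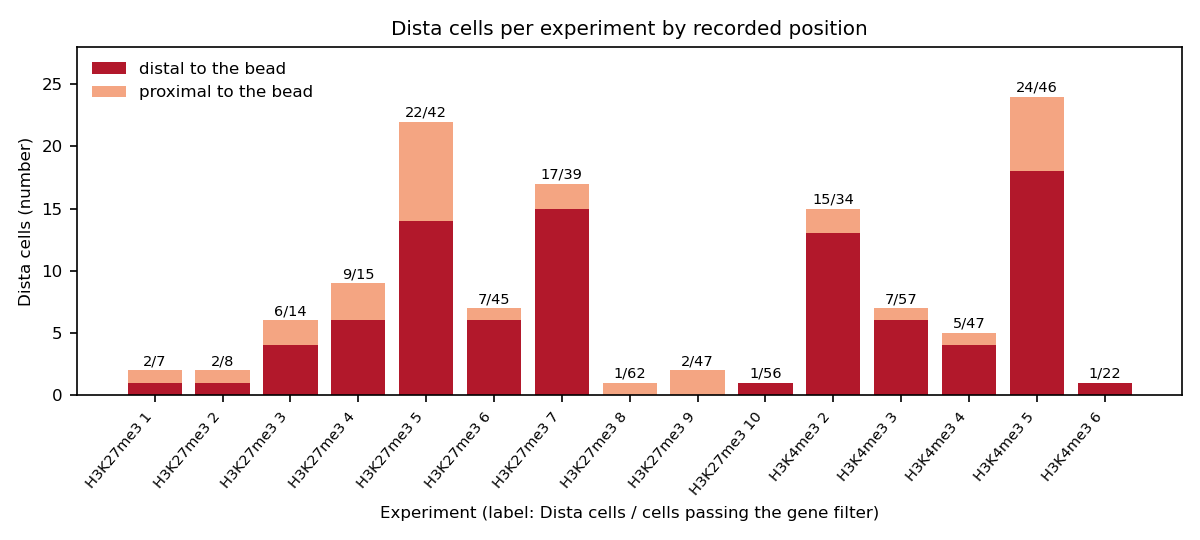
Number of Dista cells (y axis) in the 15 experiments that hold any (x axis), stacked by recorded position, with Dista cells over cells passing the gene filter written above each bar. H3K4me3 experiment 5 and H3K27me3 experiment 5 hold the most, 24 and 22, and the distal part is the larger in each of the 9 experiments used for the comparisons.

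Depth differed by orders of magnitude between Dista cells. A cell had between 5693 and 2154524 counts (median 80430) and between 1015 and 4970 detected genes (median 2109). H3K27me3 experiments 4 and 5 were the shallowest, with median totals of 10113 and 15982 counts per Dista cell. The summed Dista counts of an experiment ran from 106953 in H3K27me3 experiment 4 to 5143191 in H3K27me3 experiment 6. The reads carried no molecular identifiers, so PCR copies stay in the counts. Among the 8143 genes seen in at least 10 Dista cells, the cell with the most counts held a median of 42.7% of the gene's counts, and 39.5% of these genes had over 50% of their counts in 1 cell, nearly the same as the 39.3% among Proxi cells. A gene was seen in many Dista cells only rarely. Of 18817 genes in the tables, 998 had a count in at least 50% of the Dista cells, 9 in all 121, and 2832 in none. Genes per experiment therefore vary widely: the SD of a gene's Dista minus Proxi difference over the 9 experiments had a median of 2.82 on the log2 scale.

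The 5 marker genes were compared first. Counts were summed over the Dista cells and over the Proxi cells of an experiment and expressed as log2 CPM, the log2 of a gene's count scaled to a common library total, with TMM scaling and a prior count of 2. On this scale a sum without any count stands at -0.10. The mean over the 9 experiments was higher in Dista for 4 of the 5 markers, but none had 1 sign in all 9 experiments. These genes were chosen on the same cells, so the direction is no independent evidence.

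Ndufb10 (mm9 chr17:24859006-24861368) had the largest mean difference of the 5 markers and the widest spread. Its summed Dista level was -0.10, 4.58, 5.59, 0.97 and 7.01 log2 CPM in H3K27me3 experiments 3 to 7 and 8.53, 6.26, 7.98 and 6.63 in H3K4me3 experiments 2 to 5. The Proxi levels in the same order were -0.10, -0.10, 5.49, 7.75 and 1.28, then 1.08, 2.22, 3.21 and 4.54. All 4 H3K4me3 experiments were thus higher in Dista without overlap of the levels, while in H3K27me3 experiment 6 the difference was -6.78 and in experiment 3 neither cluster had a count. The mean difference was 2.45 ± 4.26 (SD, n = 9 experiments), 0.75 over the H3K27me3 and 4.59 over the H3K4me3 experiments. A count was found in 52 Dista cells (43.0%) and in 25.6% of Proxi cells, and 90.4% of the Proxi counts came from a single cell.

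The PRC2 genes Ezh2 and Suz12 were higher in Dista in 8 of the 9 experiments each. For Ezh2 (chr6:47480273-47545029), the catalytic subunit, the Dista level lay between 2.58 and 8.22 log2 CPM and the mean difference was 1.63 ± 2.85 (SD, n = 9), with H3K4me3 experiment 4 at -2.12 and a mean of 1.06 without H3K4me3 experiment 3. For Suz12 (chr11:79806608-79847625) the mean difference was 1.15 ± 2.18 (SD, n = 9), from -1.59 in H3K27me3 experiment 7 to 6.42 in H3K27me3 experiment 6, without which it was 0.70. Ezh2 had a count in 47.1% of Dista and 30.1% of Proxi cells, and Suz12 in 39.7% and 28.6%. Both means lie well inside the spread between experiments.

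The ribosomal markers were seen in nearly every cell and differed little. Rps4x (chrX:99380280-99384730) had a count in 96.7% of Dista and 94.7% of Proxi cells and was higher in Dista in 7 of 9 experiments, by 0.54 ± 0.60 (SD, n = 9). Rpl37 (chr15:5066613-5069140) was found in 95.9% and 93.2% of the cells and differed by -0.07 ± 1.07 (SD, n = 9), with Dista higher in 5 experiments. Of all Rpl37 counts in Dista, 49.9% came from 1 cell. Against Mix, the differences of the 5 markers were 3.41 ± 2.55 for Ndufb10, 2.29 ± 3.67 for Ezh2, 2.27 ± 3.59 for Suz12, 0.52 ± 0.73 for Rps4x and 0.89 ± 2.24 for Rpl37 (SD, n = 9 each).

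Across all genes, few separated Dista from Proxi in every experiment. Among 3948 genes that passed the filter on low counts, 5 were higher in Dista in all 9 experiments with a mean difference of at least 1 (0.127%), and 11 were lower by the same rule (0.279%). Another 60 genes with a mean of at least 1 were higher in 8 of the 9, and 59 were lower in 8 of the 9, led by Epb41l2 at -4.03. Both shares are small. A rule of 1 sign in all 9 experiments also picks some genes without any difference, and their number among the 5 and 11 is not known. The genes below are therefore given for their own values and not as a group. Over all 3948 genes, 2085 had a mean above 0 and the median difference was 0.06.

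Rbm8a (chr3:96433851-96437714) stood out among the 5. It encodes RBM8A (Y14), a core protein of the exon junction complex that is laid down on spliced mRNA. The Dista level was 9.40, 4.98, 7.05, 8.92 and 8.76 log2 CPM in H3K27me3 experiments 3 to 7 and 7.14, 8.93, 6.67 and 7.60 in H3K4me3 experiments 2 to 5, against 0.68, -0.10, 3.42, 2.14 and 2.79, then 4.89, 2.34, 4.70 and 5.19 in Proxi. Only the lowest Dista value, 4.98 in the shallow experiment 4, fell inside the range of the Proxi values. The mean difference was 4.82 ± 2.38 (SD, n = 9), with the smallest at 1.97. Proxi had no count in H3K27me3 experiment 4, so the size depends on the prior count, and with a prior of 0.5 it was 5.22. A count was found in 74 Dista cells (61.2%) and in 34.6% of Proxi cells, with 8479 counts in all against 381, and no single Dista cell held more than 15.1% of them.

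The other 4 had smaller and less even differences. TET1, an enzyme that oxidises 5-methylcytosine in DNA, is encoded by Tet1 (chr10:62267318-62350072), which was higher by 2.36 ± 2.32, with H3K4me3 experiment 4 at 0.05. Ctc1 (chr11:68829413-68849975), of the telomere-binding CST complex, was higher by 2.09 ± 1.87. Lcor (chr19:41557172-41670650), a nuclear receptor corepressor, was higher by 1.94 ± 1.77, and the semaphorin gene Sema5a (chr15:32174568-32626096) by 1.65 ± 1.15 (SD, n = 9 each). For each of these 4 the Proxi sum of H3K27me3 experiment 4 was 0. Sema5a was at 0 and 0.10 RPKM, reads normalised for exon length and library total, in the 2 bulk SET-seq libraries, while the counts of single cells include introns. Against Mix the same 5 genes differed by 2.87 ± 2.91 for Rbm8a, 2.56 ± 3.30 for Tet1, 3.91 ± 2.73 for Ctc1, 3.63 ± 3.27 for Lcor and 0.28 ± 2.98 for Sema5a, in each case with at least 1 experiment the other way.

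Among the 11 genes lower in Dista were Rnf7 and Rpl10a, Proxi markers that the study had picked on these same cells. Tmpo (chr10:90610316-90634364), which encodes lamina-associated polypeptide 2, was lowest at -3.30 ± 1.80 (SD, n = 9), and 83.3% of its 336 Dista counts lay in 1 cell. With the mean over cells of log2(CPM + 1) in place of summed counts its difference was -0.89, and those of all 11 genes ran from -1.64 for Rnf7 to -0.37 for Gna13. Tpx2 (chr2:152673700-152721057), a spindle assembly factor, differed by -1.50 ± 1.61, and Smc5 (chr19:23280931-23348387), of the SMC5/6 complex in DNA repair, by -2.56 ± 2.40. Cox8a (chr19:7289648-7292106), a subunit of cytochrome c oxidase, differed by -1.59 ± 1.97, and Mrpl22 (chr11:57985156-57993082), a mitochondrial ribosomal protein, by -2.54 ± 2.42. Hspbap1 (chr16:35770472-35828548), which encodes an HSP27-associated protein, differed by -2.96 ± 2.42. Detection moved with some of them and not with others: Tpx2 was seen in 28.9% of Dista and 43.6% of Proxi cells and Hspbap1 in 24.8% and 43.6%, while Cox8a was seen in 80.2% and 80.5%. Single experiments carried part of these means: Cox8a was at -0.75 without H3K27me3 experiment 6 and Tpx2 at -0.87 without H3K27me3 experiment 7, both short of the difference of 1 that the rule asks for.

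Rnf7 (chr9:96371356-96379094), a RING subunit of cullin ubiquitin ligases, was at 3.84, 4.58, 5.59, 5.09 and 2.58 log2 CPM in the H3K27me3 experiments of Dista and at 7.37, 2.97, 5.18 and 5.96 in the H3K4me3 experiments. The Proxi values were 9.98, 4.83, 6.01, 8.81 and 7.61, then 8.79, 7.99, 5.41 and 8.45. The 2 ranges overlapped, although Dista was the lower in each experiment, by -2.75 on average with an SD of 2.31 (n = 9). Rpl10a (chr17:28465416-28467978), a large subunit ribosomal protein, was lower by -1.17 ± 1.34 (SD, n = 9) with a count in 95.0% of Dista and 94.7% of Proxi cells. Without H3K4me3 experiment 3 the Rpl10a difference was -0.75. Ftl1 (ferritin light chain), a Proxi marker in the study's supplementary list, differed by -0.07 ± 0.50. The remaining called genes were Cmip at -2.47 ± 1.82, the histone gene H2ac8 at -2.38 ± 2.10 and Gna13, a G protein subunit, at -1.19 ± 1.70, with Gna13 equal to within 0.01 in the experiment nearest 0 and at -0.68 without H3K27me3 experiment 3. H2ac8 and Rpl10a have near-identical copies in the genome, so their counts are uncertain.

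**Figure D2:**
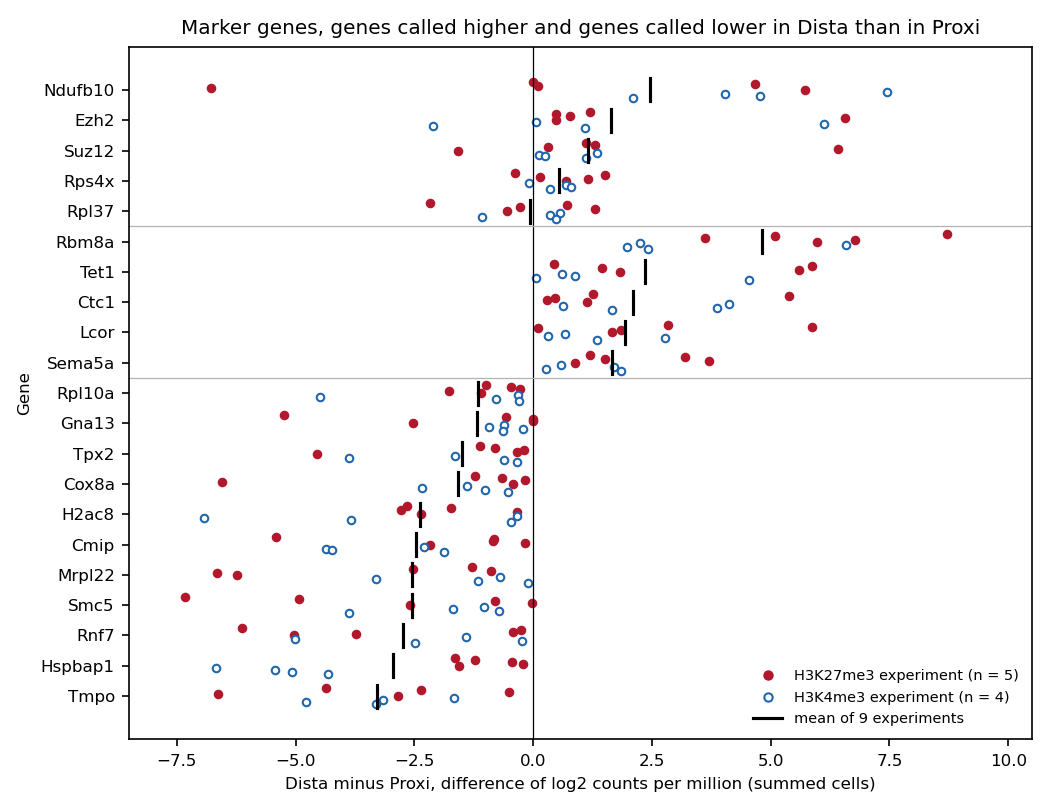
Dista minus Proxi difference of log2 CPM of summed cells (x axis) for the 5 marker genes, the 5 genes called higher and the 11 called lower (y axis), with 1 point per experiment (filled H3K27me3, open H3K4me3) and a bar at the mean of 9 experiments. Rbm8a lies between 1.97 and 8.72, and each of the 5 markers has at least 1 experiment at or below 0.

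The gene groups were then examined as lists, and a list is described by its counts and its median beside that of all genes. Of the 5 PRC2 core genes in the tables, 4 had a mean above 0 against Proxi, with a median of 0.45, and none met the rule. Rbbp4 and Rbbp7, histone-binding subunits, were at 0.45 ± 2.92 and 0.32 ± 3.16. Eed, which reads the methylated histone tail, was at -1.17 ± 2.71. Their summed level was taken by total counts without TMM scaling. It was higher in Dista than in Proxi in 7 of the 9 experiments and higher than in Mix in all 9. On that scale the median difference of all genes from Mix was 0.93. Summed translation factors were also above Mix in all 9, ribosomal protein genes in 8 and neural lineage genes in 2. The accessory subunits gave a median of -0.16 over 3 measured genes, with Jarid2 at -0.16 ± 0.82, Mtf2 at 0.41 ± 3.05 and Aebp2 at -0.70 ± 1.91. Aebp2 counts were concentrated in some experiments, at 6.19% of all Dista counts in H3K27me3 experiment 4 and 0.000202% in H3K4me3 experiment 2, so their comparison across experiments says little about the gene. PRC1 subunits had a median of 0.71 over 3 measured genes.

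Respiratory chain genes did not follow Ndufb10. Of 33 complex I genes, 15 had a mean above 0 against Proxi and the median was -0.06. Complexes II to IV gave 11 of 25 above 0 and a median of -0.38, with Cox8a called lower. Sdha, the flavoprotein of succinate dehydrogenase, was at 4.02 ± 3.35 and higher in 7 of 9 experiments, while Sdhb of the same complex was at -1.28 ± 2.08. The ATP synthase list stood at 0.04, glycolysis at -0.10 and the proteasome core at -0.43, the last with 5 of 14 genes above 0. Ribosomal protein genes stood at 0.09 with 48 of 75 above 0.

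Nucleotide metabolism had the highest median against Proxi among the lists with at least 10 measured genes, 0.65, with 16 of 26 genes above 0 and none called. Cad, which starts pyrimidine synthesis, was at 2.81 ± 3.02, and Atic, which completes the purine ring, at 1.97 ± 2.56 (SD, n = 9 each). The 2 ribonucleotide reductase genes went opposite ways, Rrm2 at 1.94 ± 2.99 and Rrm1 at -1.27 ± 4.00. By total counts without TMM scaling, the summed level of the list was higher in Dista than in Proxi in 8 of 9 experiments. Its median difference was above 0 in 6 of them, from -1.28 in H3K4me3 experiment 3 to 3.20 in the shallow H3K27me3 experiment 4. S phase genes had a median of 0.30 with none called. G2/M genes had -0.14 with 17 of 38 above 0, and Tmpo and Tpx2 among them were called lower.

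No pluripotency gene was called between Dista and Proxi in either direction. The 14 core factors had a median of 0.25 and the 11 naive genes 0.17. Nanog, which holds the naive state, was seen in 66.9% of Dista and 64.7% of Proxi cells and differed by -0.45 ± 1.87. Zfp42 (REX1) was seen in 67.8% and 64.7% and differed by -0.11 ± 1.62, and Esrrb differed by -0.56 ± 3.19. Pou5f1 (OCT4) was seen in 28.1% and 17.3% and differed by 0.44 ± 4.00 (SD, n = 9 each). With SDs of this size, differences of several fold in either direction were not detectable at this depth.

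Few genes of lineage exit and of the Wnt response were measured. Of 17 Wnt feedback genes in the tables, 3 passed the filter: Nkd1 at -0.48 ± 1.86, Znrf3 at -2.20 ± 2.61 and Ccnd1 at -0.31 ± 3.73 against Proxi, none called. Axin2, the standard reporter gene of the pathway, had a count in 5 Dista cells (4.1%) and in 3.0% of Proxi cells. Otx2 and Fgf5, of the primed epiblast, were seen in 1.7% and 8.3% of Dista cells and in 1.5% and 9.0% of Proxi cells. The primed and primitive endoderm lists had 2 and 3 measured genes with medians of 0.18 and -0.38. The neural list was better covered, with 8 of 17 genes measured, a summed Dista level of 213.7 to 2352 CPM per experiment and a median of -0.26. No mesoderm or trophoblast gene passed the filter. The 2-cell-like genes had a median of 0.52 over 6. Translation factors were at 0.16 over 21 genes, stress genes at 0.05 over 4, and the 1 measured nuclear noncoding RNA, Malat1, at -0.72 ± 2.76. Fibroblast markers served as a check for other cells. In Dista, 7 of the 13 in the tables were at 0, and their summed level was 1.9 to 50.2 CPM per experiment against 6.6 to 315.5 in Proxi, with Dista lower in all 9.

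**Figure D3:**
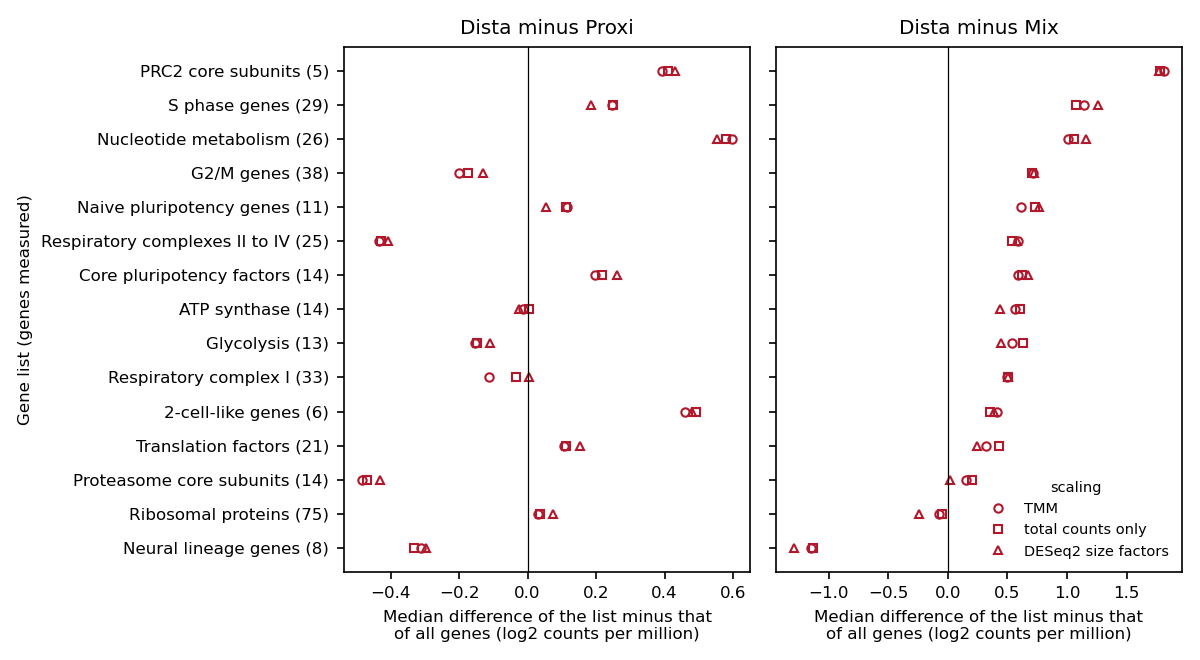
Median Dista difference of each gene list after subtracting the median of all genes (x axis, log2 CPM, scales differ between the panels) for the lists with at least 5 measured genes (y axis, number measured in brackets), against Proxi (left) and against Mix (right), with 1 symbol for each of 3 scalings. The nucleotide metabolism list stands at 0.60, 0.58 and 0.55 against Proxi, and the neural list is the lowest against Mix.

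Against Mix most genes stood higher in Dista, 2492 of 3948. The median difference of all genes was 0.46 with TMM scaling, 0.93 with scaling by total counts alone and 0.33 with DESeq2 size factors, while against Proxi it was 0.06, 0.14 and 0.18. Changes against Mix are therefore read relative to that shift. By the same rule 18 genes were higher in Dista than in Mix (0.456%) and 47 lower (1.19%). With total counts alone these were 57 higher and 3 lower, so the split depends on the scaling. These comparisons share the Dista sums with those against Proxi. The genes named here from the Mix comparison, outside the fixed lists, were chosen after their values were seen.

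By their medians, the genes called higher in Dista than in Mix without thinning were compact and expressed in bulk cells. Those called lower were long and hardly expressed there. Higher were Daxx, a histone H3.3 chaperone, by 4.61 ± 1.71, Ndufs3 of complex I by 3.50 ± 2.22, Tdgf1 (the Nodal coreceptor Cripto) by 3.49 ± 2.01, Rrm2 by 3.32 ± 2.80, Ccna2 (cyclin A2) by 3.22 ± 1.53, Naca by 2.34 ± 2.00, Rplp2 by 1.71 ± 1.85 and Cfl1 (cofilin) by 1.31 ± 1.15. Lower were Setbp1 by -3.77 ± 3.04, Auts2 by -2.93 ± 2.85, Anks1b by -2.41 ± 1.19, the postsynaptic scaffold genes Dlg4 by -1.97 ± 1.79 and Dlg2 by -1.54 ± 1.52, the calcium channel gene Cacna1a by -1.87 ± 1.62 and the Notch ligand gene Jag1 by -1.48 ± 1.19 (SD, n = 9 each). The genes lower in Dista spanned a median of 131.1 kb of genome from first to last exon and stood at a median of 0.25 RPKM in bulk cells. The genes higher spanned 11.3 kb and stood at 45.0 RPKM, and all measured genes spanned 27.1 kb at 22.7 RPKM. Of the 47 lower genes, 27 spanned over 100 kb (57.4%) and 35 were under 1 RPKM (74.5%), against 21.5% and 18.3% of all genes. Against Proxi, the genes called higher and lower spanned 82.8 kb and 24.0 kb.

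Gene span ordered the Mix difference over all genes as well. Genes under 10 kb differed by a median of 0.91, genes of 10 to 100 kb by 0.64 and genes over 100 kb by -0.46. Against Proxi the same classes were at 0.08, 0.04 and 0.03. Relative to the shift of all genes, ribosomal protein genes were at -0.08, -0.05 and -0.24 with TMM, total counts and DESeq2 size factors, whereas PRC2 core genes were at 1.81, 1.78 and 1.77, though none of the 5 was called. Their unshifted medians against Mix were 0.38 and 2.27. The PRC2 core list includes the markers Ezh2 and Suz12. Its median per experiment against Mix ran from -1.41 to 7.04 and was above 0 in 7 of the 9 experiments. The highest was in H3K27me3 experiment 3, where Mix rests on 3 cells. The other unshifted medians were 1.47 for nucleotide metabolism, 1.60 for S phase, 1.17 for G2/M, 1.04 and 1.07 for core and naive pluripotency, 0.96, 1.05 and 1.02 for complex I, complexes II to IV and ATP synthase, and -0.69 and -1.27 for the neural and Wnt feedback lists.

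The makeup of single cells followed the same order. In the median Dista cell, counts of genes spanning under 10 kb equalled 33.9% of the counts outside Rn45s, the ribosomal RNA precursor (mean of 9 experiments). The value was 32.4% in Proxi and 25.2% in Mix. Rn45s was left out of the total but not out of the span classes, so these values are not strict shares. How much of the span difference comes from Rn45s was not tested. The Dista minus Mix difference was 8.69 ± 6.11 percentage points and was above 0 in all 9 experiments, while that to Proxi was 1.57 ± 4.10 and above 0 in 7. Rn45s itself took 7.77% of all counts in Dista, 7.25% in Proxi and 5.02% in Mix. Dista was again higher than Mix in all 9, by 2.75 ± 1.35 points. Genes listed at 0 in the bulk libraries took 6.90% of Dista counts outside Rn45s, 7.28% in Proxi and 9.19% in Mix, where Dista was lower in all 9. The 50 most abundant genes took 48.9% in Dista, 48.7% in Proxi and 55.2% in Mix. Whether reads from introns or from genomic DNA contribute to these shares was not tested.

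**Figure D4:**
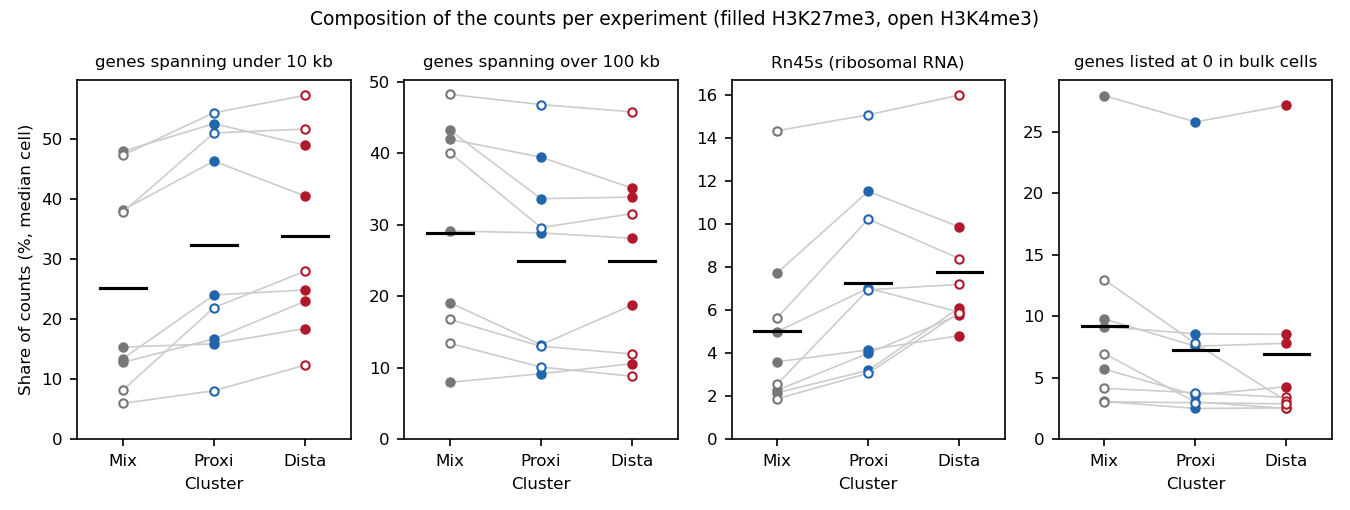
Share of counts in the median cell of each experiment (y axis, percent) for Mix, Proxi and Dista cells (x axis) in 4 classes: genes spanning under 10 kb, genes spanning over 100 kb, Rn45s, and genes listed at 0 in bulk cells. All classes but Rn45s are relative to the counts outside Rn45s, and Rn45s was not taken out of the span classes. Points are the 9 experiments joined by lines and bars are means. Dista lies above Mix in every experiment for genes under 10 kb (means of 33.9% and 25.2%) and for Rn45s.

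Detection and cell-to-cell likeness were compared at 1 depth. Cells with at least 20000 counts, 96 of the 121 Dista cells, were thinned at random to 20000 counts, which left 8 experiments with at least 3 cells of each cluster. A Dista cell then showed 1329.8 genes on average over the experiments, a Proxi cell 1264.1 and a Mix cell 1128.2. Dista exceeded Mix in all 8 experiments, by 201.6 ± 177.3 genes (SD), and Proxi in 5 of 8, by 65.7 ± 124.8. At 100000 counts, which left 3 experiments for the comparison with Mix, Dista was higher in 1 of 3, by 79.6 ± 230.8 genes (SD). The median correlation of log expression between 2 Dista cells of an experiment was 0.391, against 0.389 between Proxi cells and 0.420 between Mix cells. The Dista minus Proxi difference was 0.002 ± 0.032 and the Dista minus Mix difference -0.029 ± 0.080 (SD, n = 8), both smaller than the spread between experiments. The pairs share an experiment and its amplified genes.

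At this depth 11 of 3514 genes were detected in a larger share of Dista than of Proxi cells in all 8 experiments (0.313%) and 2 in a smaller share (0.0569%). These genes, apart from those in the fixed lists, were named after their values were seen. Detection uses counts of the same cells as the sums above, so it is no separate evidence. Some genes without any difference also keep 1 sign in all 8 experiments, and their number was not estimated. Rbm8a showed the widest gap of the 11, with a count in 43.5% of Dista and 12.5% of Proxi cells. Next were Ncor1, a corepressor that recruits histone deacetylase, in 38.8% and 16.6%, and Sdha in 25.7% and 3.66%. Smarca4 (BRG1), the ATPase of the BAF remodelling complex, was detected in 44.0% and 23.7%, the adenine nucleotide carrier gene Slc25a4 in 45.8% and 26.2%, and Ppat, which commits purine synthesis, in 22.6% and 9.24%. Qrich1 was in 23.2% and 7.19%, Tasor, of the silencing complex HUSH, in 19.1% and 5.10%, Glg1 in 28.2% and 14.1%, Tdgf1 in 35.3% and 24.7%, and Atp5g3 in 73.9% and 65.6%. In the other direction, Vdac2, a channel of the outer mitochondrial membrane, was in 26.99% of Dista and 48.8% of Proxi cells, and Galnt13 in 16.6% and 30.3%. Among all 3514 genes the median difference was 1.16 points and 2025 were above 0.

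The markers stood in another order in these thinned shares than in the pooled shares of unthinned cells. The 2 kinds of share also differ in the cells, the experiments and the averaging. Ndufb10 was detected in 31.8% of Dista, 8.69% of Proxi and 6.58% of Mix cells, higher than in Proxi in 6 of 8 experiments. Suz12 was in 26.6%, 15.8% and 9.26%, whereas Ezh2 was in 27.02%, 22.8% and 20.5%, a smaller gap to Proxi than in the pooled unthinned cells. Ribosomal protein genes were more widely detected in Dista than in Proxi for 60 of 75 genes, by a median of 3.61 points, and than in Mix for 73 of 75, by 11.5 points. Over all 3514 genes the Mix comparison gave 2198 above 0 and a median of 2.88 points. Against Mix, 27 genes were higher in all 8 experiments (0.768%) and 2 lower (0.0569%), among them Set in 88.2% of Dista and 54.0% of Mix cells and Snd1 in 33.9% and 62.8%.

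**Figure D5:**
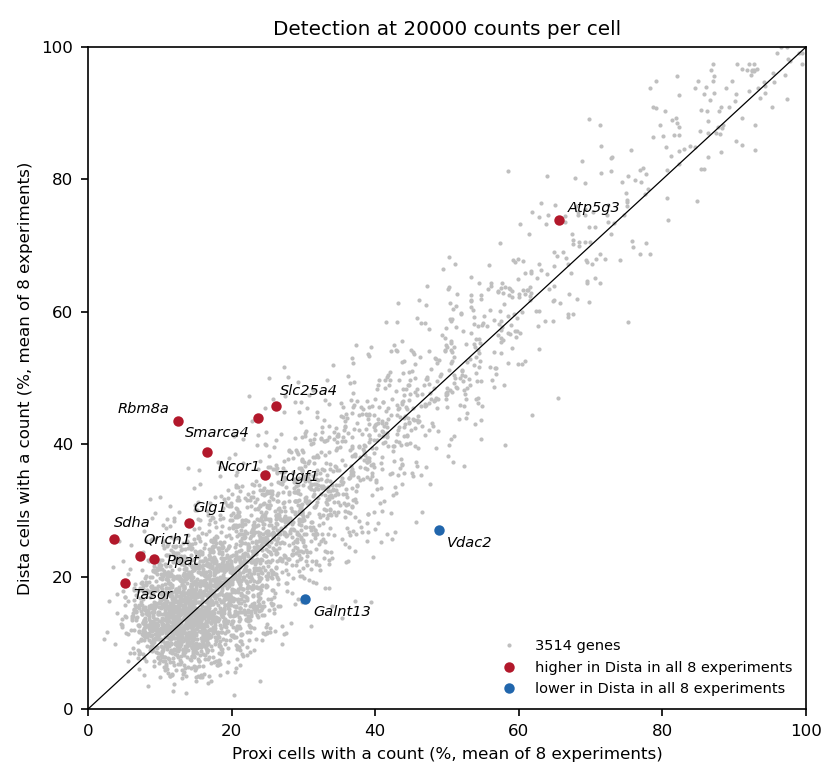
Share of Proxi cells (x axis, percent) and Dista cells (y axis, percent) with a count for each of 3514 genes, after thinning to 20000 counts, each a mean of 8 experiments; the line marks equal shares. The 11 named genes above the line and the 2 below it kept 1 direction in all 8 experiments, with Rbm8a at 43.5% against 12.5%.

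The recorded position allowed a test inside the cluster: whether distal Dista cells differ from the proximal cells that the study placed in the same cluster. Distal and proximal Dista cells were summed in the 6 experiments with at least 2 of each. No gene of 2294 passed edgeR's quasi-likelihood test with experiment as a block (0.0%, lowest adjusted p = 0.759), 135 had an unadjusted p below 0.05, and DESeq2 called 29 higher and 4 lower. The median log2 fold change of all genes was 1.02, against which single values are read. The proximal sums rest on 2 to 8 cells each. The gene with the lowest p was Mir3084-1, at 0.68 ± 0.18 (SE, unadjusted p = 0.00103 from edgeR), higher in distal cells in 5 of 6 experiments. That is below the median of all genes, it was 0.15 without H3K4me3 experiment 2, and the gene has several loci whose counts may be mixed. Col24a1 was at 1.51 ± 0.40 (SE, unadjusted p = 0.00114 from edgeR), higher in 5 of 6. It had 0 counts at both positions in H3K27me3 experiment 3. In H3K4me3 experiment 2 it had 1 distal and 0 proximal counts.

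Tuba4a, an alpha-tubulin gene, came next at 5.47 ± 1.52 (SE, unadjusted p = 0.00157 from edgeR). It had 42, 2, 7, 18, 291 and 131 counts in the distal cells of H3K27me3 experiments 3, 4, 5 and 7 and H3K4me3 experiments 2 and 5, and 0, 0, 1, 0, 0 and 1 in the proximal cells. Distal was thus higher in 6 of 6 on proximal sums of 1 count or less. Ndufb10 had a log2 fold change of 4.86 with an unadjusted p of 0.030 in edgeR, which did not pass the adjustment. The low number of proximal Dista cells limits this comparison. Cells of both positions had also been placed in 1 cluster by their expression, which favours a result without differences. The comparison therefore does not show that the 2 positions are alike.

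The assay gave the second test, H3K27me3 against H3K4me3 experiments within Dista, on 5 and 4 experiments. The RNA was separated before the antibody was added, so this compares 2 sets of experiments. In edgeR 2 of 3855 genes passed, both lower in H3K27me3 experiments (0.0519%), none higher, and 339 had an unadjusted p below 0.05. Brpf3, of a histone acetyltransferase complex, differed by -13.0 ± 2.31 and Dgkb, a diacylglycerol kinase, by -10.02 ± 1.84 (log2, SE, edgeR adjusted p = 0.0222 for both). Brpf3 stood at 0.12, 4.46, 3.97, 0.57 and 7.26 log2 CPM in H3K27me3 experiments 3 to 7 and at 5.98, 19.8, 18.5 and 5.80 in H3K4me3 experiments 2 to 5. The groups overlapped, and the difference rests on H3K4me3 experiments 3 and 4, in which Brpf3 took 21.3% and 20.8% of all Dista counts. Without H3K27me3 experiment 3 or without experiment 6, neither gene was called, and without H3K4me3 experiment 2, 19 genes were lower. Dgkb was also not called without H3K4me3 experiment 4, at -6.84.

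These genes were not particular to Dista. Brpf3 also took 29.6% and 22.4% of Proxi counts in the same 2 experiments. The same test in Proxi, over 7 and 5 experiments, called 22 of 4554 genes (0.483%), with Brpf3 at -15.7 ± 2.46 (edgeR adjusted p = 3.95e-07) and Dgkb at -7.20 ± 1.74 (edgeR adjusted p = 0.0195). The Dgkb call in Proxi was lost without H3K27me3 experiment 7 or 8 or without H3K4me3 experiment 4 or 5. Of 3224 genes tested in both clusters, 2 were called in Dista and 9 in Proxi, and 2 were shared, 100% of the first and 22.2% of the second. A similar spike was Mir3084-1, which took 22.6% of Dista counts and 21.8% of Proxi counts in H3K27me3 experiment 5 and 0.202% of Dista counts in H3K4me3 experiment 3.

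Cells that had not been clustered gave a last look at the called genes. Cells with 5000 genes or more, which the study had removed, were summed by position in the 3 experiments with at least 2 of each, H3K27me3 experiments 1 and 2 and H3K4me3 experiment 6. Distal exceeded proximal on average for 3 of the 5 genes higher in Dista than in Proxi and for 7 of the 11 lower ones, against 63.1% of all genes. Both counts lie near that of all genes.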

How the data were processed

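The authors split reads by cell barcode with zUMIs, mapped them to mm9 without mitochondria and deposited raw read counts per gene and cell on exons and introns, without molecular identifiers. Bulk SET-seq counts of read pairs on exons (Trim Galore 0.6.4, STAR 2.5.4b and featureCounts 2.0.0 in the submitters' processing notes) were also deposited by the authors with exon lengths, and RPKM was computed from them here. Cluster and position labels came from the study's cell list, which gives 69 H3K27me3 Dista cells. Dista members, markers and gene lists were chosen with earlier results of these data known.

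Counts were summed per experiment and cluster. edgeR 4.0.16 in R 4.3.3 gave the low-count filter (minimum count 10), TMM scaling, log2 CPM with a prior count of 2 and quasi-likelihood tests with Benjamini-Hochberg adjustment over all genes (threshold 0.05). A gene was called between clusters with a mean difference of at least 1 and 1 sign in all 9 experiments; a tie had no sign. Named were the markers, the 10 called genes with the largest mean rise and fall against Proxi, list members, and up to 5 called genes per test and direction, or the 3 with the lowest p; genes from the Mix and detection comparisons were chosen after their values were seen. Experiments are independent by the study's methods, but nothing says that they came from separate cultures, so p-values measure the spread between experiments, which may be technical. A gene that the rule for named genes covers is not reported here. Genes with scattered loci (spans over 2500000 bases, 42 genes) got no span. Symbols starting Rpl or Rps and a digit made the ribosomal list. Of the Dista barcodes, 52 index pairs were in use, 28 in at least 2 experiments, and 0 cells were identical. Scripts were tested on simulated data. Python 3.11.15 with pandas 2.3.3 and numpy 2.4.6 did the rest; DESeq2 1.42.0 was an alternative. Intervals are SDs over experiments or SEs of the fit.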

Additional observations from a re-analysis of the deposited data

Results flagged for a closer look

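Of 40 results checked for a value far from the others of its comparison, 8 had one. Chance alone marks about 1 in 20 such sets, and the causes were not tested. The first 4 are Dista minus Proxi gene differences (log2 CPM): Suz12 in H3K27me3 experiment 6 at 6.42, where the next was 1.33. Lcor in H3K27me3 experiment 4 was at 5.87 with the next at 2.84, and there the Proxi sum rests on 3 cells. Cox8a in H3K27me3 experiment 6 was at -6.55 with the next at -2.34, and Gna13 in H3K27me3 experiment 3 at -5.24 with the next at -2.52. Against Mix, Rpl37 in H3K4me3 experiment 2 was at 6.43 with the next at 1.60, where Mix rests on 3 cells. The share of counts in genes listed at 0 in bulk cells was lower in Dista by the most in H3K4me3 experiment 4, at -4.70 percentage points against Proxi (next -0.52) and -9.89 against Mix (next -4.45). The difference in the median correlation between cells, Dista minus Proxi, was 0.0746 in H3K27me3 experiment 7, where the next was 0.0108.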

How the results depend on the processing

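No gene called against Proxi changed the sign of its mean where it was measured, and neither did Brpf3 or Dgkb in the assay tests. The genes called against Mix and the other genes called between assays in Proxi were not followed singly. Small differences without a call changed sign: Rpl37 against Proxi (-0.07) was 0.01 with total counts, 0.10 with DESeq2 size factors and -0.18 to 0.26 without 1 experiment, the Dista minus Proxi correlation (0.002) was -0.012 at 100000 counts, the share of genes listed at 0 in bulk against Proxi (-0.38) was 0.16 without H3K4me3 experiment 4, and that of genes over 100 kb (0.07) was -0.62 without H3K27me3 experiment 7. Of the alternatives for the counts, medians and shares, 194 kept their value within the limits set and 100 moved, and for single genes 584 kept, 1 moved (Tmpo, -0.89 with the mean over cells) and 11 lost the threshold. Numbers follow as genes higher and lower in Dista. Against Proxi (5 and 11), DESeq2 size factors gave 8 higher, the mean over cells 13 and 4, at least 5 cells per cluster 42 and 90, H3K27me3 experiments alone 185 and 83, H3K4me3 experiments alone 195 and 396, and distal Dista against proximal Proxi cells 3 higher. Against Mix (18 and 47), total counts gave 57 and 3, no filter 28 higher, the mean over cells 67 and 6, thinned cells 3 and 5, at least 5 cells 56 and 259, H3K27me3 alone 243 and 116, and H3K4me3 alone 255 and 341. Fewer experiments to share a sign raise these counts by construction. Leaving out the shallow H3K27me3 experiments 4 and 5, chosen after seeing the data, gave 16 and 53 against Proxi and 46 and 71 against Mix. Leaving out 1 experiment gave 9 to 35 higher and 11 to 29 lower against Proxi, the most higher without H3K27me3 experiment 7 and the most lower without experiment 4, and 20 to 61 and 42 to 107 against Mix, the most without H3K4me3 experiment 3 and H3K27me3 experiment 3. The median span of genes higher by mean difference alone was 23.9 kb against Proxi and 18.2 kb against Mix.

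For position, DESeq2 called 29 higher and 4 lower, and leaving out any 1 experiment or dropping the replicate block gave 0. For H3K27me3 against H3K4me3 in Dista (0 higher, 2 lower), DESeq2 gave 35 and 20 and no filter 2 and 22; leaving out 1 experiment gave 0 to 24 higher, the most without H3K4me3 experiment 4, and 0 to 19 lower, the most without H3K4me3 experiment 2. In Proxi (8 and 14), DESeq2 gave 92 and 206, size factors 3 higher, no filter 49 and 672, at least 5 cells 1 and 6, and leaving out 1 experiment 0 to 7 and 1 to 16. With the replicate number as a block, 1 gene was lower in Dista and 0 and 5 were called in Proxi; without the replicate block in the same experiments, chosen after seeing the data, these were 4, and 2 and 9. The deviations of same-numbered experiments correlated at 0.045, 0.014 and 0.0547 in Dista and at 0.123, -0.0184, 0.16 and 0.0829 in Proxi. Experiments with unlike numbers were not compared in this way, so whether same-numbered experiments shared more than a number was not tested. The causes were not tested. Depth limits H3K27me3 experiments 4 and 5 most, and genes seen in few cells rest on amplified copies of few molecules.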

Other observations

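The 9 genes seen in every Dista cell, listed after their values were known, were Gm3629, Gphn, Hdac9, Lars2, Mir3084-1, Mir684-1, Otud7a, Rn45s and Sos2. Lars2 encodes the mitochondrial leucyl-tRNA synthetase and Gphn the synaptic scaffold protein gephyrin. Of these, Otud7a and Sos2 were lower in Dista than in Mix in all 9 experiments, by -1.70 ± 1.27 and -1.57 ± 1.29 (SD, n = 9) on the log2 scale, and Mir3084-1 by -1.06 ± 0.74, each with TMM scaling. By share of all counts, Mir3084-1 was higher in Dista than in Mix in H3K27me3 experiment 3 (0.551% and 0.465%) and in H3K4me3 experiment 3 (0.202% and 0.131%). Its counts may mix several loci.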
